A study of Mus musculus with 2 samples.

Results

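The 9 genes described here encode the ATP-sensitive potassium (KATP) channel and subunits of voltage-gated calcium channels. They were chosen by name, and their rows were read from both count tables, which list 33038 genes in all. Their levels were followed across cells grouped by which of 4 hormone products, insulin (Ins1 plus Ins2), Gcg, Sst and Ppy, reached 1% of a cell's unique molecular identifiers (UMIs). The channel genes took no part in forming these groups.

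The cells came from islets of Langerhans of male C57BL/6J mice aged 8 weeks, labelled as control, with no treatment or genetic change named. Single-cell RNA was captured by RevGel-seq, in which a cell and a barcoded bead are bound to each other and held in a reversible hydrogel. Both libraries, of 10000 input cells each, are technical replicates of a single islet preparation, so their spread contains no variation between animals or preparations. Library 1 held 735 cells with 15931154 UMIs and library 2 held 748 cells with 17440292 UMIs, and 0 barcodes occurred in both.

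A beta cell is held at rest by potassium leaving through KATP channels. When glucose metabolism raises ATP, the channels close, the membrane depolarizes, and calcium entering through voltage-gated channels triggers exocytosis of insulin. Alpha, delta and gamma cells, which release glucagon, somatostatin and pancreatic polypeptide, use the same families of channels.

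The comparisons used 7 groups of cells. Insulin-only cells numbered 182 in library 1 and 190 in library 2. Gcg-only cells numbered 182 and 174, Sst-only cells 35 and 23, and Ppy-only cells 54 and 68. Cells with Gcg and Ppy numbered 65 and 86, cells with Sst and Ppy 77 and 71, and cells in which none of the hormones reached 1% numbered 91 and 92. Median depth without hormone transcripts ranged from 10187 UMIs per cell in insulin-only cells of library 2 to 20180 in Ppy-only cells of library 2. Hormones took between 9.56% (Sst-only cells, library 1) and 41.4% (insulin-only cells, library 2) of the UMIs of a single-hormone group, so levels are given as counts per 1000000 non-hormone UMIs (CPM).

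The hormone groups were checked against marker genes that had not formed them. All 7 beta cell markers had their highest CPM in insulin-only cells in both libraries, and 4 of 5 delta cell markers in Sst-only cells. Of 6 listed alpha cell markers 4 were highest in Gcg-only cells and 2 in Ppy-only cells, and of 4 gamma cell markers 2 were highest in Ppy-only cells. The labels of the gamma and alpha groups are therefore less sharply backed by markers than those of the beta and delta groups.

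**Figure D1:**
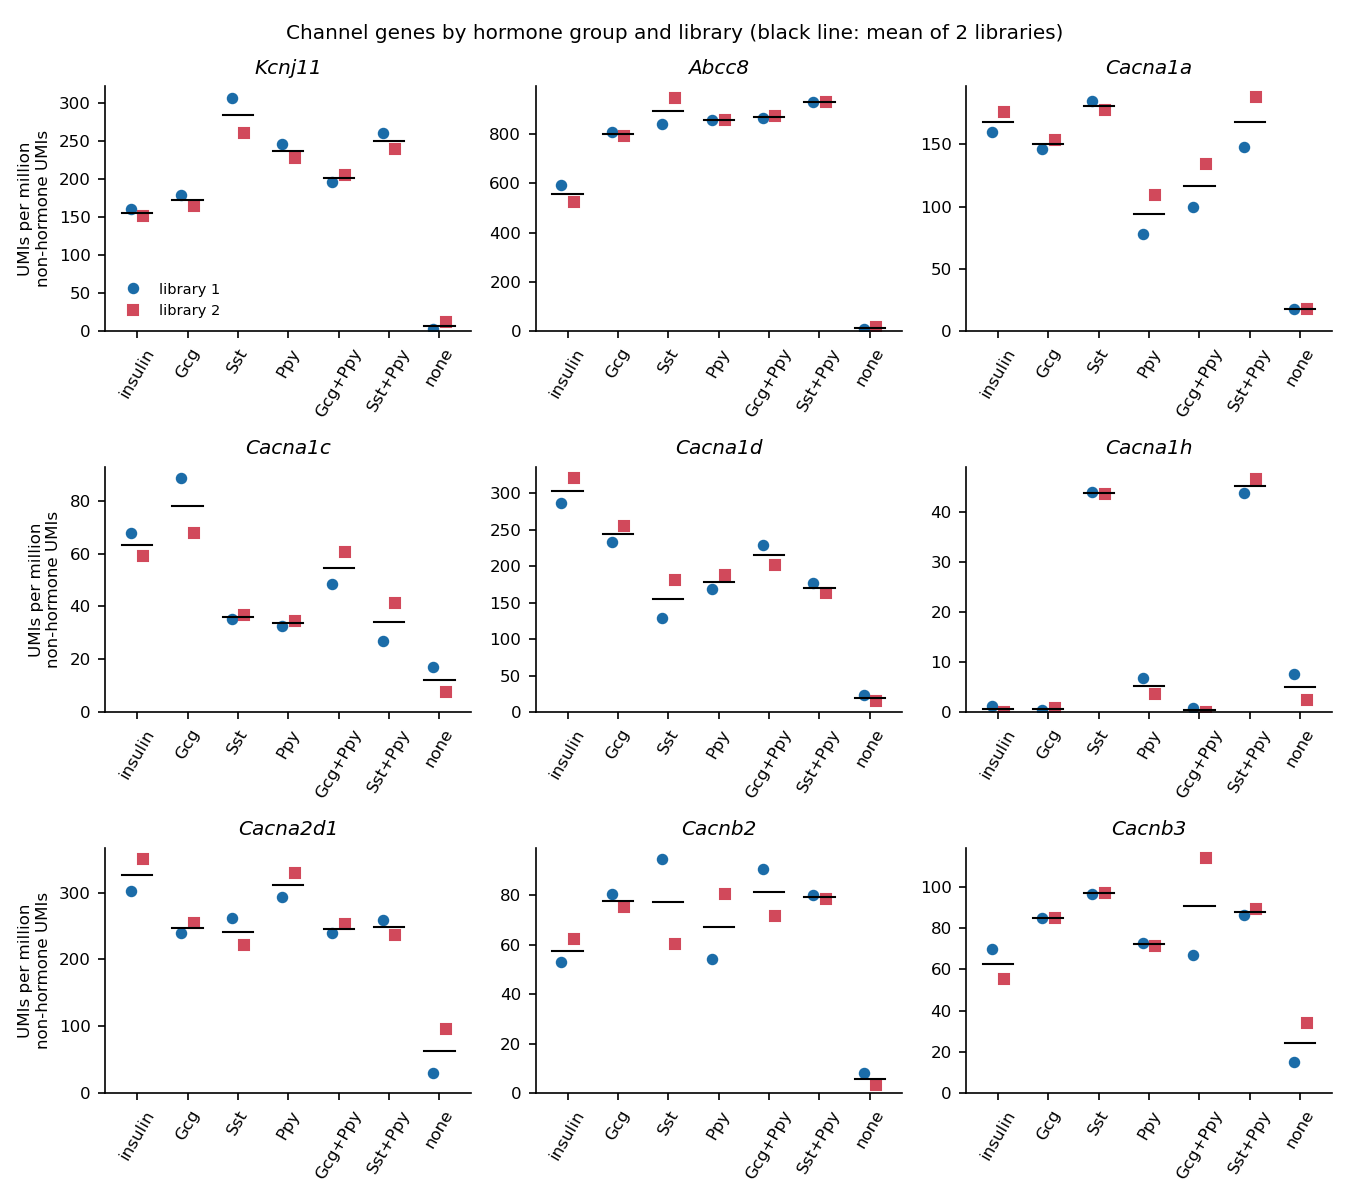
Level of each channel gene, in CPM of non-hormone UMIs on a linear axis from 0, in 7 groups of cells. Circles are library 1, squares are library 2 and black lines are their mean. Abcc8 lies lowest among hormone-positive groups in insulin-only cells (592 and 524), and Cacna1h is at or above 43.6 only in the 2 groups with Sst.

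Kcnj11 encodes Kir6.2, the pore of the KATP channel, and lies on chromosome 7 at 46093953 to 46100764 (GRCm38, minus strand). Its level was 160 CPM in library 1 and 152 CPM in library 2 for insulin-only cells. The level was 179 and 165 CPM in Gcg-only cells, 308 and 262 CPM in Sst-only cells, and 247 and 228 CPM in Ppy-only cells. Insulin-only and Gcg-only cells thus did not overlap with Sst-only and Ppy-only cells in either library. How many of all genes separate groups in this way was not counted, here or for the genes below. Of these Kcnj11 differences only that of insulin-only against Sst-only cells passed the tests given below. In double-positive cells the Kcnj11 level was 196 and 206 CPM with Gcg and Ppy, and 261 and 240 CPM with Sst and Ppy. By the mean of both libraries the order ran from Sst-only (285 ± 32.6 CPM, SD, n = 2) down to insulin-only cells (156 ± 6.06), and the 3 highest groups, Sst-only, Sst with Ppy and Ppy-only, did not differ from each other in turn beyond the spread.

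Abcc8 encodes SUR1, the sulfonylurea receptor that regulates the Kir6.2 pore, and is the neighbour of Kcnj11 on the same strand, at 46104523 to 46180033 on chromosome 7, with 3758 bases between the 2 genes. Its level was 592 and 524 CPM in insulin-only cells. It was 810 and 793 CPM in Gcg-only cells, 839 and 949 CPM in Sst-only cells, and 859 and 860 CPM in Ppy-only cells. Insulin-only cells were below every other hormone-positive group in both libraries. Cells with Gcg and Ppy had 867 and 873 CPM, and cells with Sst and Ppy had 930 CPM in both libraries. The number of Abcc8 UMIs per Kcnj11 UMI, which can be read across groups but not as a ratio of molecules because capture differs between genes, was 3.58 ± 0.166 (SD, n = 2) in insulin-only cells and 4.66 ± 0.207 in Gcg-only cells. It was 3.18 ± 0.636 in Sst-only and 3.63 ± 0.201 in Ppy-only cells, so the ratio in Gcg-only cells lay beyond the spread of the other single-hormone groups.

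UMIs of both KATP genes occurred together in part of the cells. With each cell thinned to 4000 non-hormone UMIs, which left out 1 shallower insulin-only cell of library 2, Abcc8 had a UMI in 83.5% (95% exact interval 77.3% to 88.6%) and 83.1% (76.9% to 88.1%) of insulin-only cells, and in 91.8% and 94.3% of Gcg-only cells. Unthinned, the insulin-only shares were 97.3% and 94.2%. Kcnj11 had a UMI in 43.4% and 44.4% of insulin-only cells and in 77.1% and 60.9% of Sst-only cells after thinning. Both genes were detected together in 35.7% and 39.2% of insulin-only cells and in 74.3% and 60.9% of Sst-only cells. Whether these joint shares exceed what the single shares alone would give was not tested. In cells with no hormone, which stand for background, both were detected together in 1 of 91 and 1 of 92 cells. All intervals cover counting error only.

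**Figure D2:**
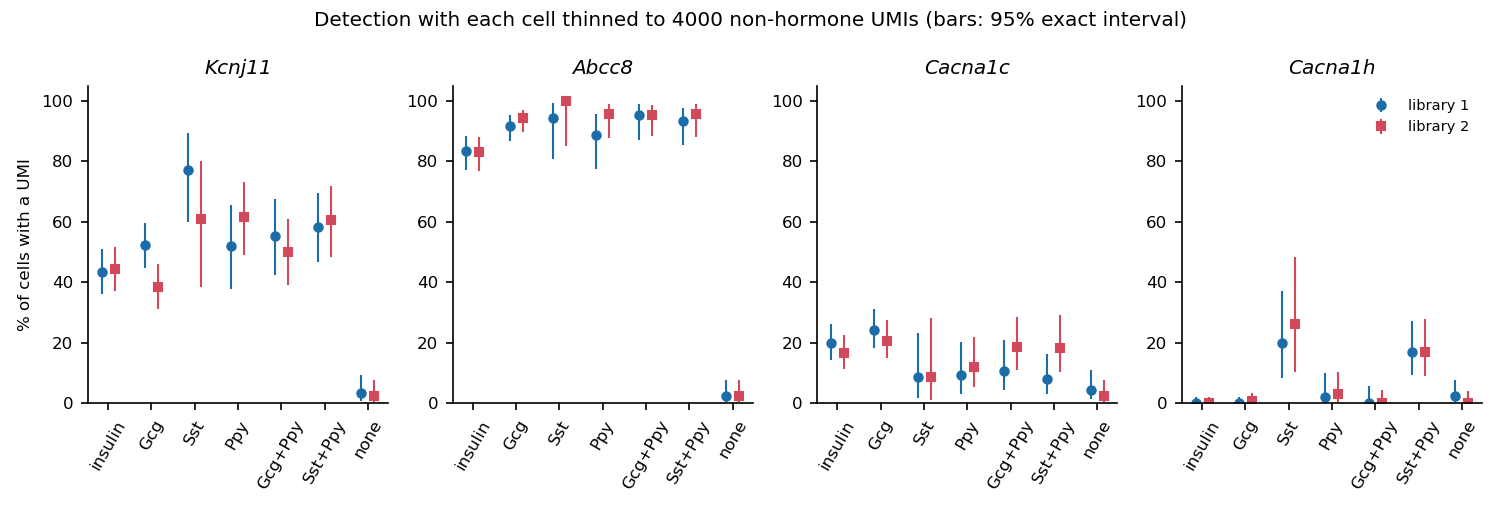
Percentage of cells with a UMI of Kcnj11, Abcc8, Cacna1c and Cacna1h after thinning every cell to 4000 non-hormone UMIs, by hormone group, with 95% exact (Clopper-Pearson) intervals; circles are library 1 and squares library 2. Abcc8 was found in 83.1% or more of the cells of every hormone-positive group, and Cacna1h reached 20% and 26.1% in Sst-only cells.

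Cacna1a encodes the pore of P/Q-type calcium channels, a high-voltage-activated type that is tightly coupled to exocytosis in neurons and islet cells. Its level was 160 and 176 CPM in insulin-only cells, 146 and 154 CPM in Gcg-only cells, and 185 and 178 CPM in Sst-only cells. Ppy-only cells were lower than all of these, with 78.2 and 109 CPM. Cells with Gcg and Ppy (99.5 and 134 CPM) lay between Gcg-only and Ppy-only cells without overlapping the former, while cells with Sst and Ppy (148 and 188 CPM) overlapped Sst-only cells.

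Cacna1c and Cacna1d encode the pores of the L-type channels Cav1.2 and Cav1.3, which dihydropyridines block. Cacna1c was at 67.9 and 59.0 CPM in insulin-only and 88.7 and 67.6 CPM in Gcg-only cells. It was at 35.2 and 36.9 CPM in Sst-only cells and 32.7 and 34.6 CPM in Ppy-only cells. The first pair of groups did not overlap with the second. Cacna1d was at 287 and 321 CPM in insulin-only cells and 234 and 255 CPM in Gcg-only cells, against 130 and 181 CPM in Sst-only and 168 and 188 CPM in Ppy-only cells. For both L-type genes the values of insulin-only and Gcg-only cells thus lay above those of Sst-only and Ppy-only cells in both libraries. Not every such difference passed the tests given below. Cacna1c did not pass for insulin-only against Sst-only cells, nor Cacna1d for Gcg-only against Ppy-only cells. Cells with Gcg and Ppy lay between Gcg-only and Ppy-only cells for both genes by their means (54.4 ± 8.57 CPM for Cacna1c and 215 ± 19.0 CPM for Cacna1d, SD, n = 2).

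For both L-type genes, the 250 bases before a RefSeq start of each (GRCm38.p6) are shown, 5′ to 3′ on the gene's minus strand. RefSeq windows matched 5 of the 9 channel genes, Cacna1c, Cacna1d, Cacna2d1, Cacnb2 and Cacnb3. Of the windows listed for each gene the one with most GC boxes is printed, and capitals mark that motif (GGGCGG or CCGCCC). The Cacna1c window lies at chr6:119108496-119108745 and the Cacna1d window at chr14:30353487-30353736.
Cacna1c: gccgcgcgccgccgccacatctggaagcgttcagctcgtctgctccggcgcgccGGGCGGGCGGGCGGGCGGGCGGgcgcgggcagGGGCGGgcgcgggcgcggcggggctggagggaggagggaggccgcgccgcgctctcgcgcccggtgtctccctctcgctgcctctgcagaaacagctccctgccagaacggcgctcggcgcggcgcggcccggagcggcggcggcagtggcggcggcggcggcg
Cacna1d: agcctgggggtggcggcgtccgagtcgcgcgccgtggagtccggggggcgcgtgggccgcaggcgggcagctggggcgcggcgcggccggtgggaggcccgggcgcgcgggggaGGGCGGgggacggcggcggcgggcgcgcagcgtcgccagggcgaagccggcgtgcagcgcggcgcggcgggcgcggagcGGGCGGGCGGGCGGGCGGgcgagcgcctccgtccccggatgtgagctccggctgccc
The Cacna1c window contained 6 GC boxes at 82.8% G plus C, and the Cacna1d window contained 5 at 86.4%. This is not particular to the L-type genes, since a window of Cacna2d1 also contained 6 at 82.4%, and windows of Cacnb3 and Cacnb2 contained up to 3 and 1. The other listed windows of Cacna1c and Cacna1d held 0 GC boxes. A GC box was present in 32.7% of 32851 windows of this length and a CCAAT box (CCAAT or ATTGG) in 33.8%. A TATA box (TATAAA or TTTATA) was present in 12.4% and a cyclic AMP response element (TGACGTCA) in 1.55%. Neither printed window held any of these last 3 motifs. An unprinted Cacna1d window held 3 TATA boxes and 1 CCAAT box, and an unprinted Cacna1c window held 1 CCAAT box. The printed windows were picked for their GC boxes, so their counts cannot be set against the 32.7%. The counted fragments come from the polyadenylated end of transcripts, so the data do not show which start a cell used.

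Cacna1h encodes the pore of Cav3.2, a low-voltage-activated T-type channel that opens near the resting potential. Its level was 43.9 and 43.6 CPM in Sst-only cells and 43.7 and 46.6 CPM in cells with Sst and Ppy. It was 1.11 CPM in library 1 and 0 in library 2 for insulin-only cells, 0.381 and 0.708 CPM in Gcg-only cells, and 6.88 and 3.52 CPM in Ppy-only cells. Among the 7 groups compared, Sst-only cells and cells with Sst and Ppy did not overlap with any other group. Sst-only cells held 33 UMIs in 23 of 58 cells, against 3 UMIs in 3 of 372 insulin-only cells, a ratio of 74.2 per non-hormone UMI (95% counting interval 23.3 to 378). Against Gcg-only cells, with 3 UMIs in 2 of 356 cells, the ratio was 79.6 (25 to 405), and against Ppy-only cells, with 14 UMIs in 10 of 122 cells, it was 8.98 (4.67 to 18.2). No single cell carried the signal, since the highest Sst-only cell held 3 UMIs in either library.

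After thinning, Cacna1h had a UMI in 20% and 26.1% of Sst-only cells and in 16.9% of cells with Sst and Ppy in both libraries. In insulin-only cells it was found in 0 of 182 and 0 of 189 cells, which allows a share of up to 1.65% and 1.59% by the limit of 3 counts (exact upper bounds 2.01% and 1.93%). In cells with no hormone it was found in 2.20% of cells of library 1 and in 0 of 92 of library 2, which allows 3.26% (exact upper bound 3.93%). Unthinned, it had a UMI in 40.0% and 39.1% of Sst-only cells and in 1.65% and 0% of insulin-only cells. Ppy-only cells were at 1.85% and 2.94% after thinning, with intervals (0.0469% to 9.89% and 0.358% to 10.2%) that overlap those of cells with no hormone.

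Cacna2d1 encodes the alpha-2-delta-1 subunit, which raises the surface density of calcium channels and binds gabapentin. It was at 303 and 351 CPM in insulin-only cells and 294 and 329 CPM in Ppy-only cells, which overlapped. Gcg-only cells, with 239 and 255 CPM, and Sst-only cells, with 262 and 221 CPM, were below both in each library. With hormone transcripts in the denominator the place of Sst-only cells turned, since Cacna2d1 was then at 218 CPM there, 197 CPM in insulin-only and 201 CPM in Ppy-only cells. Cacnb2 and Cacnb3 encode cytoplasmic beta subunits that bring the pore to the membrane and set its gating. Cacnb2 ranged from 52.8 CPM (insulin-only cells, library 1) to 94.5 CPM (Sst-only cells, library 1), and Cacnb3 from 55.6 CPM (insulin-only cells, library 2) to 114 CPM (cells with Gcg and Ppy, library 2) among hormone-positive groups. Neighbours in the order of Cacnb2 levels did not differ beyond their spread among the 6 hormone-positive groups. The number of Cacnb2 UMIs per Cacnb3 UMI stayed between 0.799 ± 0.252 (SD, n = 2) in Sst-only cells and 0.987 ± 0.508 in cells with Gcg and Ppy, a span smaller than the SD of either of these groups.

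Differences between groups were tested with edgeR on UMI sums per group and library, over 14955 genes, with 5 hormone genes left out. A gene was called at an adjusted p under 0.05 (Benjamini-Hochberg over all genes tested). Since the libraries are technical replicates, these p-values measure only the spread between libraries of the same islet preparation. All 9 channel genes passed the filter on low counts, and the sums of all groups share an estimate of spread. Cacna1h, with 3 UMIs in insulin-only and 3 in Gcg-only cells, passed the filter only through groups where it is high. Against such groups it could only come out lower in insulin-only and Gcg-only cells. Its adjusted p and its place in the counts below are therefore a description and no support.

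Insulin-only and Gcg-only cells differed in 1 of the 9 genes, where 25.0% of all genes tested were called. Abcc8 was 1.40-fold lower in insulin-only cells (log2 fold change -0.49 ± 0.15, SE, adjusted p = 0.0237). Cacna1d was at a log2 difference of 0.35 ± 0.15 (adjusted p = 0.0961), which passed at a 5% hormone threshold (0.37, adjusted p = 0.0353), and Kcnj11 at -0.11 ± 0.19 (95% interval -0.55 to 0.34). The median over the 9 genes was -0.11, against 0.00 over all genes.

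Against Sst-only cells, insulin-only cells differed in 4 of 9 genes (14.5% of all genes). Cacna1d was 2.23-fold higher in insulin-only cells (log2 1.16 ± 0.18, adjusted p = 0.000371). Kcnj11 was 1.65-fold lower (log2 -0.72 ± 0.21, adjusted p = 0.0324), Abcc8 was 1.43-fold lower (log2 -0.52 ± 0.15, adjusted p = 0.0325), and Cacna1h was lower with an adjusted p of 9.52e-05 (log2 -5.89 ± 0.78, and -4.79 with library 1 alone and -7.10 with library 2 alone). At a 0.5% hormone threshold the Kcnj11 and Abcc8 calls were lost (log2 -0.67 and -0.36, adjusted p = 0.105 and 0.156). Cacna1c, at a log2 difference of 0.98 ± 0.35, did not pass (adjusted p = 0.0747), but it passed at hormone thresholds of 0.5%, 2% and 5% (log2 1.59, 1.08 and 1.1, adjusted p = 0.0282, 0.0284 and 0.00232) and without the filter on low counts (1.08, adjusted p = 0.0157). The median of the 9 was -0.31, against 0.03 for all genes.

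Against Ppy-only cells, insulin-only cells differed in 5 of 9 genes (20.2% of all genes). The 3 high-voltage-activated pore genes were higher in insulin-only cells: Cacna1a by 1.84-fold (adjusted p = 0.00192), Cacna1c by 1.95-fold (adjusted p = 0.0174) and Cacna1d by 1.77-fold (adjusted p = 0.00117). Abcc8 was 1.48-fold lower (log2 -0.57 ± 0.15, adjusted p = 0.0125), and Cacna1h was lower with an adjusted p of 0.0367. That Cacna1h call rests on 3 and 14 UMIs, was at -2.31 on the log2 scale with library 1 alone and -3.66 with library 2 alone, and was lost after thinning with a larger difference (-4.31, adjusted p = 0.103) and at a 5% hormone threshold with a smaller one (-0.83, adjusted p = 0.287). Kcnj11 did not pass (log2 -0.55 ± 0.19, adjusted p = 0.0563), but it passed with DESeq2 (adjusted p = 0.0138), without TMM factors (0.036), without the filter on low counts (0.0154) and at a 5% hormone threshold (0.0106). The median of the 9 was -0.14, against 0.01 for all genes.

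Gcg-only cells differed from Sst-only cells in 3 of 9 genes (12.3% of all genes). Cacna1c was 2.37-fold higher in Gcg-only cells (adjusted p = 0.0248) and Cacna1d 1.75-fold higher (adjusted p = 0.00699), while Cacna1h was lower (adjusted p = 8.52e-05). The Cacna1h difference was -6.00 on the log2 scale, and -5.83 with library 1 alone and -5.33 with library 2 alone. The Cacna1c call was lost with DESeq2 (adjusted p = 0.0625) and after thinning (adjusted p = 0.0557), with log2 differences of 1.18 and 1.53 in place of 1.25. The Cacna1d call was lost after thinning (adjusted p = 0.0578), at 0.69 in place of 0.81. Kcnj11 was at -0.61 ± 0.21 and did not pass (adjusted p = 0.0737). It was called lower in Gcg-only cells under 6 other settings, with adjusted p between 0.00394 (DESeq2) and 0.0451 (DESeq2's size factors in edgeR). These leave aside 2 fits chosen after seeing the data, which also called Kcnj11. Its adjusted p was 0.000686 without cells with no hormone, and 0.00257 without those of them led by endocrine markers. Abcc8 had a log2 difference of -0.03 with a 95% interval of -0.39 to 0.33. The median of the 9 was -0.03, against 0.05 for all genes.

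Gcg-only cells differed from Ppy-only cells in 2 of 9 genes (9.49% of all genes), Cacna1a at 1.61-fold (adjusted p = 0.0206) and Cacna1c at 2.35-fold (adjusted p = 0.00723), both higher in Gcg-only cells. With the library as a block in the fit Cacna1h was called as well, at an adjusted p of 0.05, which made 3 genes. Cacna1d was at a log2 difference of 0.47 ± 0.15 and did not pass (adjusted p = 0.0682). Without the filter on low counts Cacna1d passed (0.48, adjusted p = 0.0403). Kcnj11 was at -0.44 ± 0.19 and did not pass (adjusted p = 0.185), though it passed at a 5% hormone threshold (-0.39, adjusted p = 0.0498). Sst-only and Ppy-only cells also differed in 2 of 9 genes (9.08% of all genes): Cacna1a was 1.78-fold higher in Sst-only cells (adjusted p = 0.0166), and Cacna1h was higher with an adjusted p of 0.00705. Thinning removed the Cacna1a call in both comparisons, at log2 differences of 0.58 in place of 0.68 (adjusted p = 0.148) and 0.65 in place of 0.83 (adjusted p = 0.301). The medians were 0.21 against 0.00 for all genes, and 0.12 against -0.02.

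**Figure D3:**
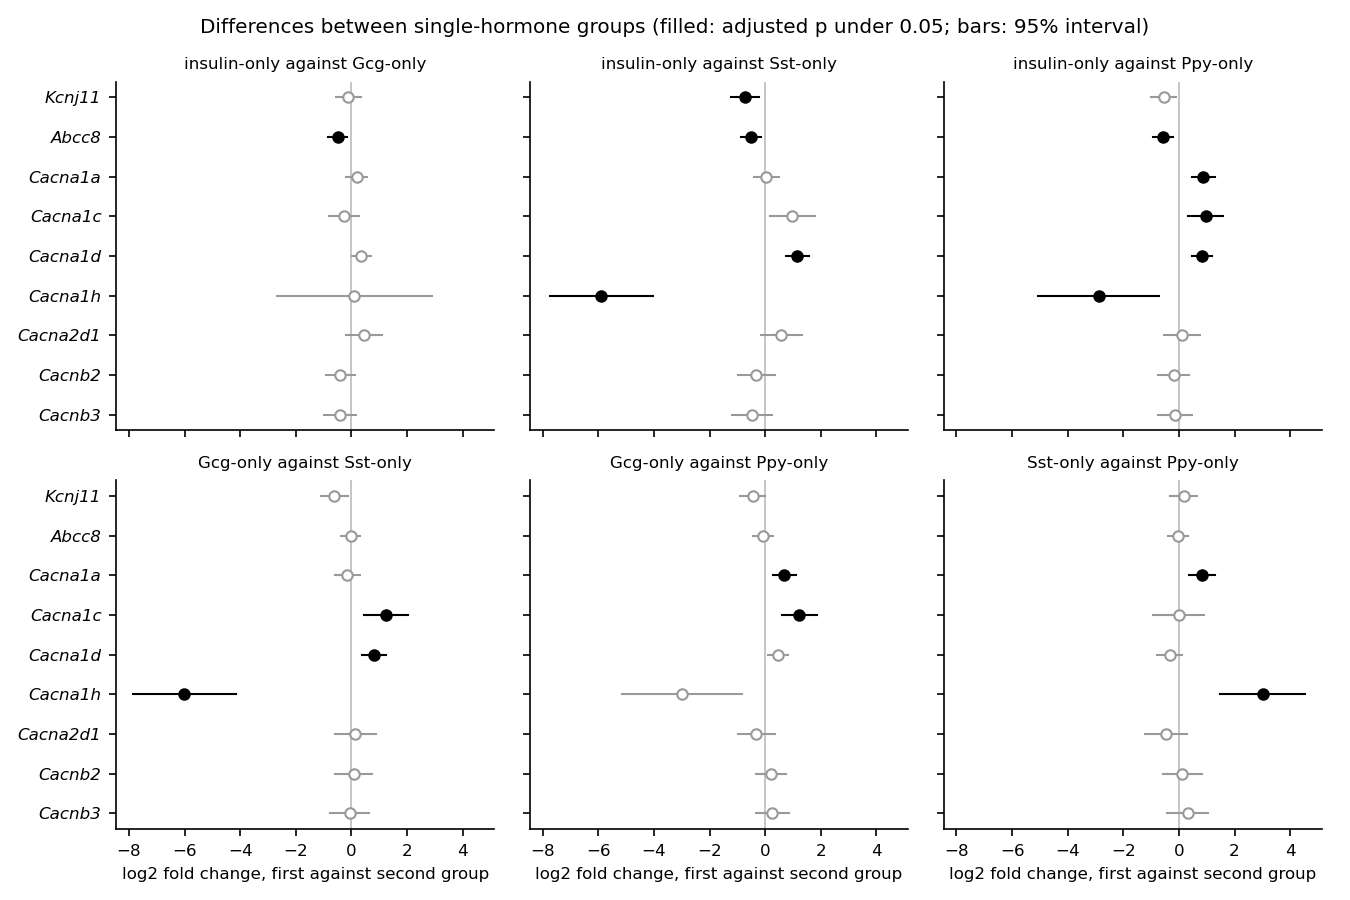
Log2 fold change of each channel gene in the 6 comparisons between single-hormone groups, first group against second, with 95% intervals from the edgeR fit; filled points passed an adjusted p of 0.05. Cacna1d lies at 1.16 for insulin-only against Sst-only cells, and the points of Cacna2d1, Cacnb2 and Cacnb3 are open in every panel.

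Cacna2d1, Cacnb2 and Cacnb3 passed the test in 0 of these 6 comparisons. Of the 18 values, the most distant from 0 was 0.59 ± 0.31 for Cacna2d1, insulin-only against Sst-only cells (adjusted p = 0.25). The shared estimate of spread includes cells with no hormone, in which Cacna2d1 differed most between libraries (29.5 and 95.4 CPM). The part of this difference in the Cacna2d1 tests was not tested. Cacna2d1 was called without the filter on low counts and after thinning in insulin-only against Gcg-only cells (adjusted p = 0.0142 and 0.00326), insulin-only against Sst-only cells (0.000807 and 0.00388) and Sst-only against Ppy-only cells (0.0326 and 0.0355). Without cells with no hormone in the fit, an alternative chosen after seeing the data, Cacna2d1 was called in 4 comparisons: higher in insulin-only than in Gcg-only cells (log2 0.44 ± 0.10, adjusted p = 0.000985) and Sst-only cells (0.55 ± 0.14, adjusted p = 0.00382), and lower in Gcg-only and Sst-only than in Ppy-only cells (-0.32 ± 0.11 and -0.43 ± 0.14, adjusted p = 0.0351 and 0.038). Both of its differences from Sst-only cells had the opposite sign in CPM over all UMIs, as given above. In the same fit Kcnj11 was called lower in insulin-only than in Ppy-only cells (adjusted p = 0.000341) and lower in Gcg-only than in Sst-only and Ppy-only cells (adjusted p = 0.000686 and 0.00434). The numbers of channel genes called, in the order of the comparisons above, then became 3, 6, 6, 4, 6 and 3. The numbers over all genes also rose in that fit, to 4680, 2729, 3935, 2332, 2310 and 1884 of those tested.

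In these fits TMM scaling (trimmed mean of M-values) set the libraries against each other, and the directions of the 17 differences called between single-hormone groups, which do not include Cacna2d1, were also those of plain CPM over all UMIs, hormone transcripts included. On that scale Abcc8 was at 338 CPM in insulin-only cells and at 601 CPM in Gcg-only cells. Drawing 23 cells per group and library, the number in the smallest group, removed 13 of the 25 calls made over all comparisons and turned 0 of them in direction.

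Markers of other cell types were present at low levels in the hormone groups. Endothelial markers summed to 567 CPM in Sst-only cells of library 1 and 50.3 CPM in library 2, and to 6373 and 8154 CPM in cells with no hormone, with all 6 markers present in every group. Leukocyte markers summed to 158 and 6.705 CPM in Sst-only cells. Cacna1h was at 43.9 and 43.6 CPM in these same sums, on 20 and 13 UMIs. Of 5 acinar markers, Cela1 alone was high in Sst-only cells (230 ± 112 CPM, SD, n = 2), whereas Cpa1, Cel and Pnlip had 0 UMIs there. The part of these markers in the channel results was not tested.

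Does a second hormone go with other channel levels? Cells with Gcg and Ppy were compared with Gcg-only cells, and 0 of 9 channel genes were called, where 0.0401% of all genes were called. Cells with Sst and Ppy were compared with Sst-only cells with the same count of 0 (0.0134% of all genes). In both comparisons 0 of 9 had an unadjusted edgeR p under 0.05, and DESeq2 also called 0. The nearest were Cacna1a (log2 -0.36, 95% interval -0.77 to 0.05) and Cacna1c (-0.52, -1.11 to 0.07), both lower in cells with Gcg and Ppy. For Abcc8 the intervals were -0.24 to 0.46 with Gcg and -0.27 to 0.45 with Sst, so a difference over 1.5-fold lay outside both. For Cacna1h the ratio of cells with Sst and Ppy to Sst-only cells was 1.03 (0.689 to 1.58), on 98 and 33 UMIs.

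Smaller sets of cells were not tested. Cells with insulin plus another hormone (37 and 27) had 707 and 585 CPM of Abcc8, between insulin-only and the other single-hormone groups, and 15.2 and 19.4 CPM of Cacna1h. Cells with Gcg and Sst, with or without Ppy (12 and 17), had 16.3 and 22.3 CPM of Cacna1h, below Sst-only cells. Scrublet called 12 cells of both libraries doublets, 0.809% of all cells, and pairs of cells under a shared barcode cannot be told apart from cells with both hormones by these counts.

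Cells with no hormone were compared with the mean of the 4 single-hormone groups. All but Cacna1h, 8 of 9 channel genes, were called and higher in the hormone groups, where 59.7% of all genes were called and 26.3% called higher in the hormone groups. Abcc8 was at 7.54 and 16.2 CPM in cells with no hormone, 58.1-fold below the hormone groups (log2 5.86 ± 0.19, adjusted p = 7.58e-12). Kcnj11 was at 2.51 and 11.6 CPM, 25.3-fold below (adjusted p = 8.9e-10). Cacna1c and Cacnb3 differed least among those called, at 3.98-fold (adjusted p = 1.65e-05) and 2.91-fold (adjusted p = 6.27e-05). The median of the 9 was 2.92, against -0.05 over all genes. Most of these sizes depended on the library. With library 1 alone the log2 difference was 6.58 for Abcc8, 6.22 for Kcnj11, 3.17 for Cacna2d1, 2.99 for Cacnb2, 2.36 for Cacnb3 and 1.55 for Cacna1c. With library 2 alone it was 5.44, 3.96, 1.48, 4.20, 1.06 and 2.54 in that order.

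The channel UMIs of cells with no hormone were spread differently in the libraries. The list with most UMIs was endothelial or leukocyte in 69 cells of library 1 and 74 of library 2, and in these Kcnj11 had 2 UMIs in each library and Abcc8 had 7 and 3. The endocrine list (Chga, Chgb, Scg2, Scg5 and Pcsk2) led in 5 cells of library 1 and 6 of library 2. Those 6 cells held 23 of 25 Kcnj11 UMIs, 31 of 35 Abcc8 UMIs and 196 of 206 Cacna2d1 UMIs of the group in library 2. In library 1 the 5 cells held 2 of 4 Kcnj11 UMIs, 3 of 12 Abcc8 UMIs and 24 of 47 Cacna2d1 UMIs. Cacna1h went the other way, with 0 UMIs in the endocrine-list cells of both libraries and 10 of 12 UMIs of library 1 in leukocyte-list cells. A single cell held 7 of those 12.

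Of the 6 cells 2 stood apart, and they were singled out after their values were seen. They held 177211 and 95959 non-hormone UMIs, many times the median of the group, with 625 and 285 UMIs of Vip, the gene of vasoactive intestinal peptide, 684 and 379 of Nos1, neuronal nitric oxide synthase, and 735 and 364 of Stmn2, a tubulin-binding protein of growing axons. They were the 2 cells of both libraries with 100 or more Vip UMIs. They held 160 of the 206 Cacna2d1 UMIs and 28 of the 73 Cacnb3 UMIs of cells with no hormone in library 2. Without them Cacna2d1 was at 24.4 CPM there, close to the 29.5 CPM of library 1. Without all 11 endocrine-list cells the log2 difference between hormone groups and cells with no hormone was 7.25 for Kcnj11 in place of 4.66, 7.49 for Abcc8 in place of 5.86, and 4.71 for Cacna2d1 in place of 2.03.

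**Figure D4:**
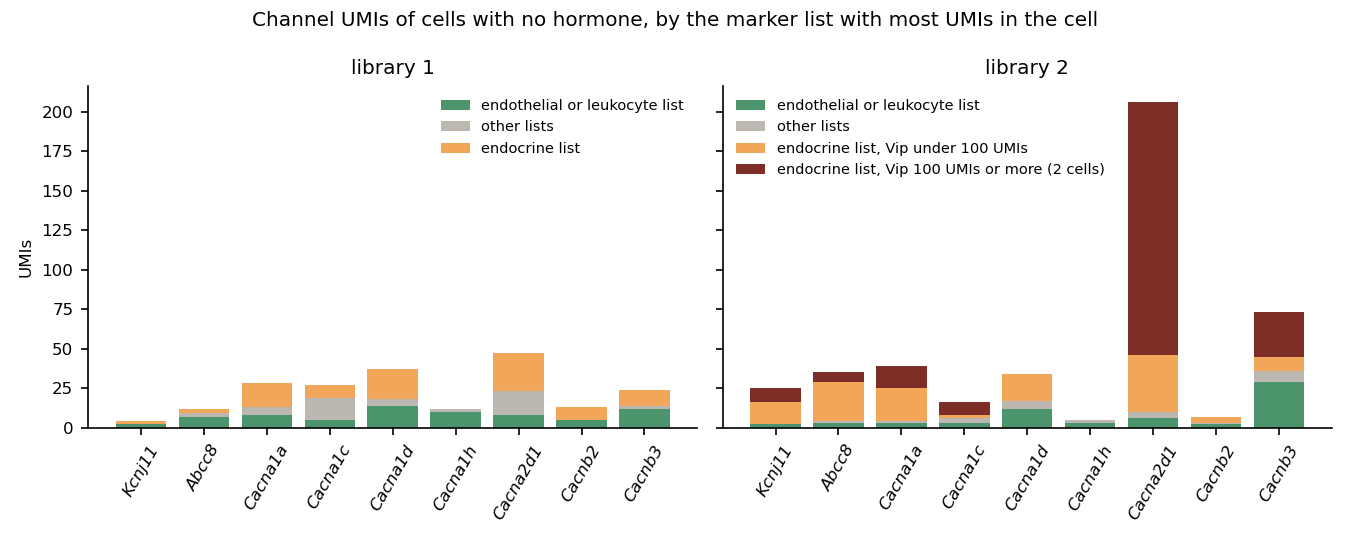
UMIs of each channel gene in cells with no hormone, stacked by the marker list with most UMIs in the cell, for library 1 (left) and library 2 (right). The dark segments are the 2 cells of library 2 with 100 or more Vip UMIs, which hold 160 of the 206 Cacna2d1 UMIs.

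Within insulin-only cells Abcc8 varied with the share of insulin transcripts. The cells of each library were split at their median insulin share, 38.7% of UMIs in library 1 and 41.5% in library 2, a split made after its values were seen and left without a test. Abcc8 was at 667 CPM in cells with the lower share and 475 CPM in cells with the upper share in library 1, and at 608 and 399.6 CPM in library 2. Kcnj11, its partner, was at 158 and 163 CPM in library 1 and at 156 and 145 CPM in library 2. Cacna1d was at 295 and 274 CPM, then 339 and 293 CPM. Cacna1c was also lower in cells with the upper share, at 75.3 and 56.5 CPM, then 63.2 and 52.6 CPM. Cacna1a (154 and 169 CPM, then 172 and 181 CPM) and Cacnb2 (49.2 and 58.4 CPM, then 60.4 and 65.2 CPM) were higher there. Cacna2d1 (291 and 321 CPM, then 381 and 305 CPM) and Cacnb3 (77.1 and 59.3 CPM, then 53.4 and 58.9 CPM) went opposite ways in the libraries. Gcg-only cells had 810 and 793 CPM of Abcc8, and the part of the insulin share in that difference was not tested.

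**Figure D5:**
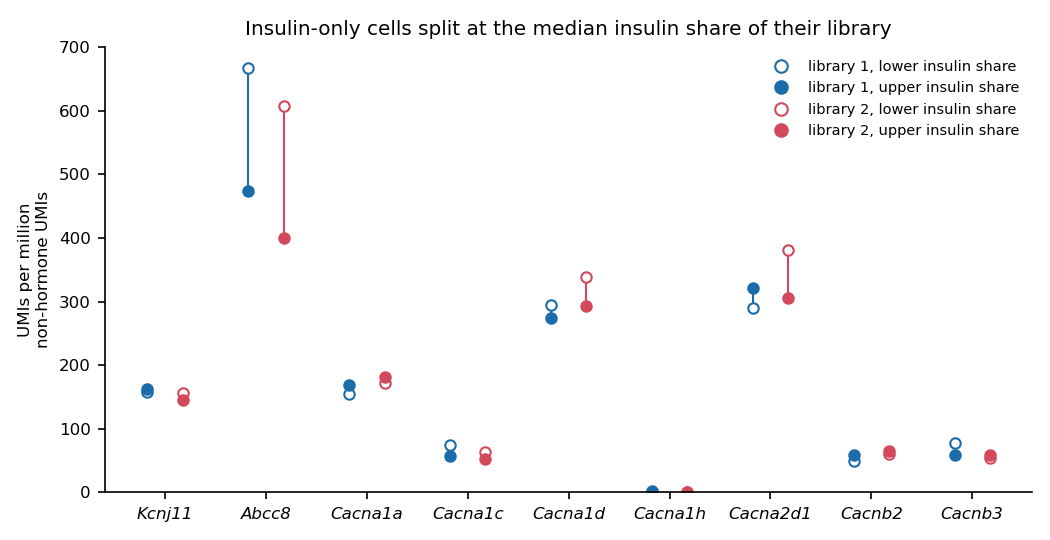
Level of each channel gene, in CPM of non-hormone UMIs, in insulin-only cells with a lower (open) or upper (filled) share of insulin than the median of their library; blue is library 1 and red library 2. Abcc8 falls from 667 to 475 in library 1 and from 608 to 399.6 in library 2, while Kcnj11 lies at 158 and 163, and at 156 and 145.

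Other subunits of both channel families were read from a list of 21, of which 20 were listed in the tables and 12 were tested. Insulin-only cells were higher in 0 of the 12 against Gcg-only, Sst-only and Ppy-only cells, and lower in 4, 6 and 4, where 25.0%, 14.5% and 20.2% of all genes were called in either direction. Genes of this list with 0 or few UMIs in insulin-only cells, as Cacna2d3 below, passed the filter on low counts only through other groups. Such genes could only come out lower in insulin-only cells, so these counts are not read as a result about the list. The same limit holds for single genes of this list, here and in the next paragraph, in any group where they have 0 or few UMIs. Their adjusted p is given as a description and not as support. Cacna2d3, a further alpha-2-delta subunit, had 0 UMIs in insulin-only cells, 57.7 ± 13.2 CPM (SD, n = 2) in Sst-only cells and 26.9 ± 8.17 CPM in Ppy-only cells, at least 94.5-fold and 43.7-fold higher with 3 counts over the insulin-only group as the floor. Its adjusted p was 2.5e-06 and 4.81e-06. Cacna2d2, another of them, was at 91.9 ± 6.74 CPM in Sst-only cells and at 0 UMIs in Gcg-only cells, at least 169-fold higher (adjusted p = 4.66e-05).

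Of other pore genes, Cacna1b, the N-type pore, named after its values were seen, was at 32.1 ± 7.45 CPM (SD, n = 2) in Sst-only, 35.0 ± 0.429 CPM in Sst with Ppy and 19.5 ± 0.134 CPM in insulin-only cells. Cacna1e, the R-type pore, was at 17.8 ± 12.7 CPM (SD, n = 2) in Sst-only and 0.185 ± 0.261 CPM in insulin-only cells (adjusted p = 0.00198). Cacna1i, a T-type pore like Cacna1h, was at 16.1 ± 0.98 CPM in Sst-only cells and had 0 UMIs in Gcg-only and Ppy-only cells (adjusted p = 0.00121 and 0.0053). Its fold was at least 28.9 and 15.2, on 12 UMIs in all Sst-only cells. Cacng4, a gamma subunit, was at 122 ± 8.34 CPM in Gcg-only and 79.4 ± 13.8 CPM in Ppy-only cells, against 10.7 ± 2.62 CPM in insulin-only cells (adjusted p = 2.18e-07 and 4.01e-06). Cacna2d4 was at 26.1 ± 6.705 CPM in Gcg-only and 0.395 ± 0.0368 CPM in insulin-only cells (adjusted p = 1.33e-05). Abcc9, which encodes the SUR2 subunit of vascular KATP channels and was named after its values were seen, had 160 UMIs in cells with no hormone and 1 in insulin-only cells.

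Genes that regulate calcium channels were read from a list of 15, of which 11 were tested. Insulin-only cells were higher in 1 and lower in 3 against Gcg-only cells, lower in 2 and higher in 0 against Sst-only cells, and higher in 2 and lower in 2 against Ppy-only cells, beside the same 25.0%, 14.5% and 20.2% of all genes. Cabp1, a calcium-binding protein that modulates channel gating, was at 62.8 ± 4.73 CPM (SD, n = 2) in insulin-only and 1.62 ± 1.21 CPM in Gcg-only cells, 37.3-fold apart (adjusted p = 5.11e-07). Rem2, a small GTPase that inhibits calcium channels, was 2.34-fold lower in insulin-only than in Gcg-only cells (adjusted p = 0.0283). Calm2, a calmodulin gene, was 1.72-fold lower (adjusted p = 0.0017). Camk2d, a calmodulin-dependent kinase subunit, was lower in insulin-only than in Gcg-only (2.88-fold, adjusted p = 0.000915), Sst-only (2.41-fold, adjusted p = 0.0355) and Ppy-only cells (2.73-fold, adjusted p = 0.00268). Its relative Camk2g did not pass (lowest adjusted p 0.0698). Gem, another inhibitory GTPase, was 3.57-fold higher in insulin-only than in Ppy-only cells (adjusted p = 0.00131).

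Genes of calcium release, entry and clearance came from a list of 23, of which 18 were tested. Against Gcg-only cells, insulin-only cells were higher in 5 and lower in 1, with a median log2 difference of 0.26 against 0.00 over all genes. Against Sst-only cells they were higher in 4 and lower in 4, and against Ppy-only cells higher in 6 and lower in 1, again beside 25.0%, 14.5% and 20.2% of all genes called. Atp2a2 (SERCA2), which pumps calcium into the endoplasmic reticulum, was at 1074 ± 7.46 CPM (SD, n = 2) in insulin-only and 237 ± 8.83 CPM in Gcg-only cells (adjusted p = 2.32e-08). Its relative Atp2a3 (SERCA3) was at 477 ± 25.8 and 141 ± 8.30 CPM (adjusted p = 3.98e-07). The inositol trisphosphate receptor genes went in opposite directions: Itpr1 was 4.36-fold lower in insulin-only than in Gcg-only cells (adjusted p = 2.8e-07), and Itpr2 was 11.9-fold higher (adjusted p = 3.87e-06). Stim1, a calcium sensor of the endoplasmic reticulum, was 2.46-fold higher (adjusted p = 1.13e-05). Atp2b4, a plasma membrane calcium pump, was 2.32-fold higher in Sst-only than in Ppy-only cells (adjusted p = 0.00338) and 1.89-fold lower in insulin-only than in Sst-only cells (adjusted p = 0.0113).

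Genes whose levels ran most like those of the channel genes were ranked by Pearson r of log2(CPM + 10) over the 14 sums, among 11078 genes. The sums share libraries, and the low values of cells with no hormone weigh on every r, so these are a description. Cacna1h ran with Bmp3 (r = 0.99), Nbl1 and Tmie. Bmp3, a secreted growth factor, was at 166 CPM in Sst-only, 109 CPM in Sst with Ppy and 4.75 CPM or less in insulin-only, Gcg-only and Ppy-only cells. Pnmal2 was among the nearest genes of both KATP members, with r = 0.99 for Kcnj11 and r = 1.00 for Abcc8. Cacna1d ran with Nav2, Ptprf and Neurod1, the last a transcription factor of endocrine cells at 422 CPM in insulin-only, 350 CPM in Gcg-only, 169 CPM in Sst-only and 202 CPM in Ppy-only cells. Cacna1c ran with Ccnd2 (r = 0.96), a D-type cyclin at 2811 and 3081 CPM in insulin-only and Gcg-only and 1694 and 1432 CPM in Sst-only and Ppy-only cells. The nearest genes of Cacna1a, Cacna2d1, Cacnb2 and Cacnb3 were Cmtm4, Ap3b2, Cry2 and Mapk1ip1.

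On GRCm38 all channel genes but Kcnj11 and Cacnb3 share positions with other annotated genes. Cacnb2 (chromosome 2, 14603088 to 14987908, plus strand) overlaps 7 genes on its own strand and 8 on the other. Cacna1d (chromosome 14, 30039939 to 30491455, minus strand) overlaps 6 on the other strand. Cacna1h (chromosome 17, 25374285 to 25433783, minus strand) overlaps Tpsg1 on the other strand, Cacna1a (chromosome 8, 84388440 to 84640246, plus strand) overlaps 1 gene there, and Cacna1c (chromosome 6, 118587240 to 119196418, minus strand) overlaps 2. Cacna2d1 lies on chromosome 5 at 15934691 to 16374511 and Cacnb3 on chromosome 15 at 98630840 to 98644529, both on the plus strand. Reads were counted on exons, and whether the count used the strand is not given in the sources used here.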

How the data were processed

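The deposited files hold UMI counts per gene and cell for 2 libraries of islet cells. Per the methods, the authors made them with Cytonaut 1.2 and UMI-tools 1.1.2, aligning reads to exons of GRCm38 (Ensembl 99) and selecting cell barcodes. All 1483 barcodes deposited had at least 200 genes and at most 20% mitochondrial UMIs, so 0 were removed. Doublets were called with Scrublet (scanpy 1.11.5) and left out only as an alternative.

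Counts were summed per hormone group and library into 14 sums and fitted with edgeR 4.0.16 (R 4.3.3; TMM, filterByExpr, quasi-likelihood test, Benjamini-Hochberg over 14955 genes, threshold 0.05, 7 residual degrees of freedom). The code was tested on simulated data. Intervals of log2 values use the SE and a t distribution on 7 degrees of freedom and are approximate. Shares have exact Clopper-Pearson intervals (scipy 1.17.1). The limit for a share of 0 is 3 counts.

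All 9 channel genes are named. From each list of related genes, up to 6 with the lowest adjusted p between single-hormone groups are named, and for likeness the 3 nearest genes. The genes, lists and groups were chosen with earlier results of these data known. Alternatives covered DESeq2 1.42.0, scaling, filters, hormone thresholds, thinning, cell numbers, doublets, the library block and single libraries.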

Additional observations from a re-analysis of the deposited data

How the results depend on the processing

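Of the 25 called channel gene results, 25 kept their direction under every alternative run and 12 kept their call in every alternative with a test. These 12 were all calls against cells with no hormone, Cacna1d for insulin-only against Sst-only cells, and the Cacna1h calls that involve Sst-only cells. Every other call between single-hormone groups was lost in some alternative, among them all those of Abcc8, Kcnj11, Cacna1a and Cacna1c. With a single library there is a value but no test. Drawing 23 cells per sum left 0, 2, 0, 1, 0 and 1 channel genes called in insulin-only against Gcg-only, insulin-only against Sst-only, insulin-only against Ppy-only, Gcg-only against Sst-only, Gcg-only against Ppy-only and Sst-only against Ppy-only cells, and 902, 754, 979, 658, 288 and 639 genes in all. It left 4502 genes against cells with no hormone, 0 for Gcg with Ppy against Gcg-only and 1 for Sst with Ppy against Sst-only cells. These sums hold fewer cells.

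For insulin-only against Gcg-only cells, where 1 channel gene was called, 2 were called after thinning, 2 with a 5% hormone threshold, 2 without the filter on low counts, 3 without cells with no hormone in the fit, and 3 without the 11 endocrine-list cells. Over all genes these settings called 2683, 3808, 3890, 4680 and 4208 in place of 3739. For Gcg-only against Ppy-only cells, where 2 were called, the counts were 1, 4, 4, 6 and 5, and over all genes 788, 1431, 1750, 2310 and 1762 in place of 1419. The last 2 alternatives were chosen after seeing the data. The cause was not tested.

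Over all genes, thinning gave 1232 calls in place of 2161 for insulin-only against Sst-only, 1792 in place of 3016 for insulin-only against Ppy-only, 1071 in place of 1843 for Gcg-only against Sst-only, 639 in place of 1358 for Sst-only against Ppy-only cells, and 4960 in place of 8931 against cells with no hormone. For Gcg with Ppy against Gcg-only cells, 6 genes were called, and the count was 15 after thinning, 11 with DESeq2, 52 without cells with no hormone, 153 without the filter and 15 without the endocrine-list cells. For Sst with Ppy against Sst-only cells, 2 were called, and the count was 1 after thinning, 4 with DESeq2, 4 without cells with no hormone, 66 without the filter, 1 with hormone genes in the totals and 0 with a 2% threshold. That comparison was not run at 5%, where it held under 10 cells in a library.

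The library numbers name technical replicates and pair nothing else. Deviations of same-numbered sums correlated between -0.04 and 0.11 (median 0.00, 21 pairs, 6188 genes). With the library as a replicate block, 1, 4, 5, 3, 3 and 2 channel genes were called in the 6 comparisons between single-hormone groups, 8 against cells with no hormone and 0 in both comparisons of double-positive cells, so the block changed only the count for Gcg-only against Ppy-only cells. Of 189 alternative values for shares of cells with a UMI, at other thinning depths and thresholds, 65 moved by less than the spread between libraries.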
